A study of Homo sapiens with 12 samples.

Results

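Exosomes released by untreated sorted CSC-like cells were compared with exosomes released by untreated parental cells of MDA-MB-231, a human basal-like breast adenocarcinoma line with a mesenchymal character. CSC-like stands for cancer stem cell-like. The comparison held 6 of the 12 samples of the series, 3 per group, and 98 mature miRNAs that have a row in the deposited tables of both populations. Samples were chosen by their labels and miRNAs by their presence in both tables. Both groups were kept in serum depleted of exosomes and received no cisplatin, and small RNA libraries were made from RNA isolated with a kit for vesicles. The labels do not say by which markers CSC-like cells were sorted, whether replicates were separate cultures or how pure the vesicles were. The p-values therefore reflect how far these samples vary, and that variation may be technical.

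Exosomes are small vesicles of endosomal origin that carry mature miRNAs between cells. A mature miRNA is a short RNA that guides Argonaute proteins to mRNAs that pair with its seed, bases 2 to 8 from the 5′ end. miRNAs with the same seed form a family and can repress overlapping sets of mRNAs, even when they are made from different genes. In breast cancer the let-7 and miR-30 families are linked to differentiation and to restraint of self-renewal, and miR-21 to growth and invasion.

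The sequences shown are of some of the miRNAs with an unadjusted p under 0.05 or with shares that did not overlap between the groups. Some seed relatives of these are included, so that shared seeds can be seen. The sequence of miR-30b-5p is not shown. All sequences are the mature ones of RefSeq on GRCh38.p14, with the seed in capitals. RefSeq names matched 84 of the 98 miRNAs, and all 84 had the sequence given in the deposited tables.
miR-30a-5p: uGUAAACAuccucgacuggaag
miR-30c-5p: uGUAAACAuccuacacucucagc
miR-100-5p: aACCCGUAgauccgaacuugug
miR-99b-5p: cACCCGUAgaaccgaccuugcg
miR-25-3p: cAUUGCACuugucucggucuga
miR-92a-3p: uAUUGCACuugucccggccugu
miR-21-5p: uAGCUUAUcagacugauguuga
miR-26a-5p: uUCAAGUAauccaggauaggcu
miR-7704: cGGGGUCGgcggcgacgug

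The miR-30, the miR-99/100 and the miR-25/92 sequences thus each share 1 seed. Among the 98 names there were 72 distinct seeds, and 13 seeds were carried by 2 or more names.

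Parental libraries held 2648 to 4005 listed miRNA counts and CSC-like libraries 1526 to 2522. With 3 counts of the total as the limit that a count of 0 allows, the upper limit was 0.0749% to 0.113% in parental and 0.119% to 0.197% in CSC-like libraries. Limits and intervals of shares cover counting error only, since reads without molecular identifiers are not independent molecules. Shares are percentages of all listed counts of a library and are given for replicates 1, 2 and 3 in that order. A lower share of a miRNA cannot be told apart from a higher share of the others, nor from fewer vesicles that carry it. Abundance of most, not all, miRNAs known from MDA-MB-231 went with the label. The exception was miR-222-3p, counted 1, 4 and 6 times in parental and 2, 2 and 11 times in CSC-like libraries. Its share was as low as 0.0284% in parental replicate 1 and 0.0921% in CSC-like replicate 2. miR-21-5p, miR-100-5p, miR-146a-5p and miR-221-3p each made up at least 0.491% of counts in every library, while miR-200b-3p and miR-429 of the epithelial miR-200 family reached at most 0.142% together. Among miRNAs of blood cells and serum, miR-126-3p and miR-486-5p were the members listed for both populations, and together they stayed between 0% and 0.284% in parental and between 0.119% and 0.138% in CSC-like libraries. miR-451a, miR-223-3p and the other 7 members of that list, and all 10 members of the pluripotent stem cell clusters, were not among the 98 names. Of that blood and serum list, miR-122-5p had a row for parental exosomes alone, with 0, 0 and 6 counts or 0.150% of replicate 3. miR-451a had a row for CSC-like exosomes alone, with 0, 1 and 0 counts.

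The parental libraries resembled each other less than the CSC-like libraries did. Over the 30 miRNAs abundant enough to be tested, the Spearman correlation between libraries was 0.15 to 0.64 within the parental group, 0.70 to 0.81 within the CSC-like group and 0.23 to 0.81 between groups, as a description over the same miRNAs. The spread of shares within a group, as a coefficient of variation, had a median of 61.3% in parental and 42.3% in CSC-like exosomes, and it was wider in the parental group for 21 of 30 miRNAs. Parental replicate 1 stood apart through its let-7 share of 0.766%, beside 27.9% and 14.5% in replicates 2 and 3 and 18.02%, 11.05% and 16.02% in the CSC-like libraries. Replicate libraries of a group differed beyond sampling noise in every pair, with a chi-square per degree of freedom of 21.5 to 51.2 in parental and 4.58 to 13.9 in CSC-like pairs.

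**Figure D1:**
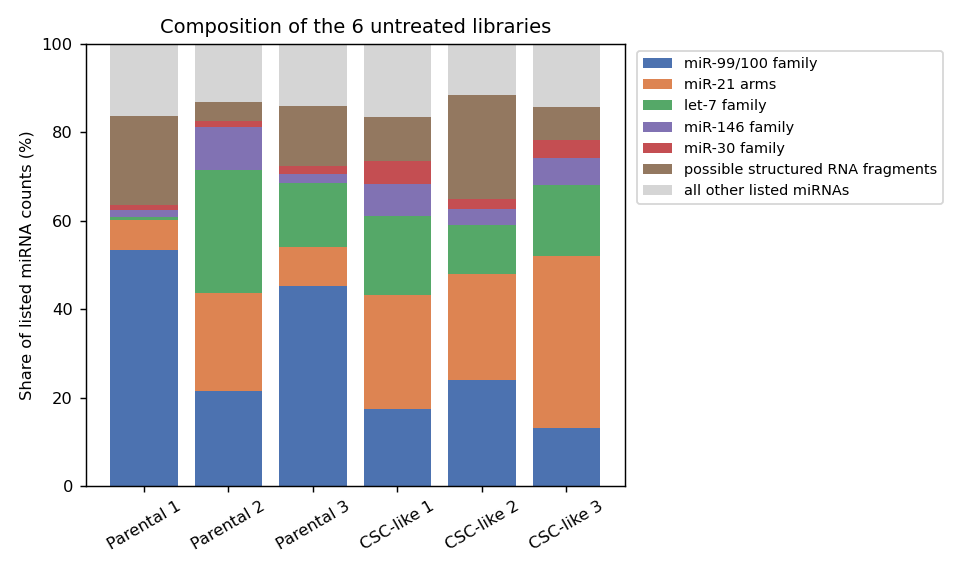
Stacked bars give the share of listed miRNA counts (%) taken by 6 miRNA lists and by all other listed miRNAs in each of the 6 untreated libraries. The let-7 family makes up 0.766% of parental replicate 1 and 11.05% to 27.9% of the other libraries, and the miR-99/100 family 53.4% of parental replicate 1 and 13.2% of CSC-like replicate 3.

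The comparison asked which miRNAs differed between exosomes of CSC-like and parental cells before any drug was given. miR-30b-5p, of the miR-30 family that favours epithelial traits, was higher in CSC-like exosomes and was the only miRNA that passed the test, 1 of 30 or 3.33%. No miRNA was lower past the threshold. The test was edgeR's quasi-likelihood test with Benjamini-Hochberg adjustment over the 30 miRNAs and a threshold of 0.05. At an unadjusted p under 0.05 there were 5 miRNAs or 16.7%, of which miR-30b-5p and miR-30c-5p had higher and miR-100-5p, miR-25-3p and miR-7704 lower fitted values. The 30 tested miRNAs carried 90.2% to 92.9% of the counts of each library.

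Counts of miR-30b-5p were 1, 1 and 3 in parental libraries and 7, 29 and 18 in CSC-like libraries. These are shares of 0.0284%, 0.0378% and 0.0749% against 0.459%, 1.34% and 0.714%. The highest parental library thus lay below the lowest CSC-like library, and the exact (Clopper-Pearson) 95% intervals of those libraries, 0.0155% to 0.219% and 0.185% to 0.943%, overlapped at their ends. The log2 fold change was 3.50 (SE 0.86, 95% interval 1.80 to 5.21, adjusted p = 0.00261 in edgeR). It passed the count minimum, 0.387% of counts in at least 3 libraries, through the CSC-like libraries alone. With no count minimum it was still the 1 call among all 98 names (1.02%; 4.01, adjusted p = 0.0107), and likewise among the 63 names with at least 15 counts over the 6 libraries (1.59%; 3.83, adjusted p = 0.0130). The call ended without parental replicate 1 (3.25, adjusted p = 0.0763) and without CSC-like replicate 2, the library with the highest share (3.21, adjusted p = 0.0997). The 15 alternatives spanned log2 fold changes of 3.21 to 4.01 and adjusted p-values of 0.000151 to 0.0997.

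**Figure D2:**
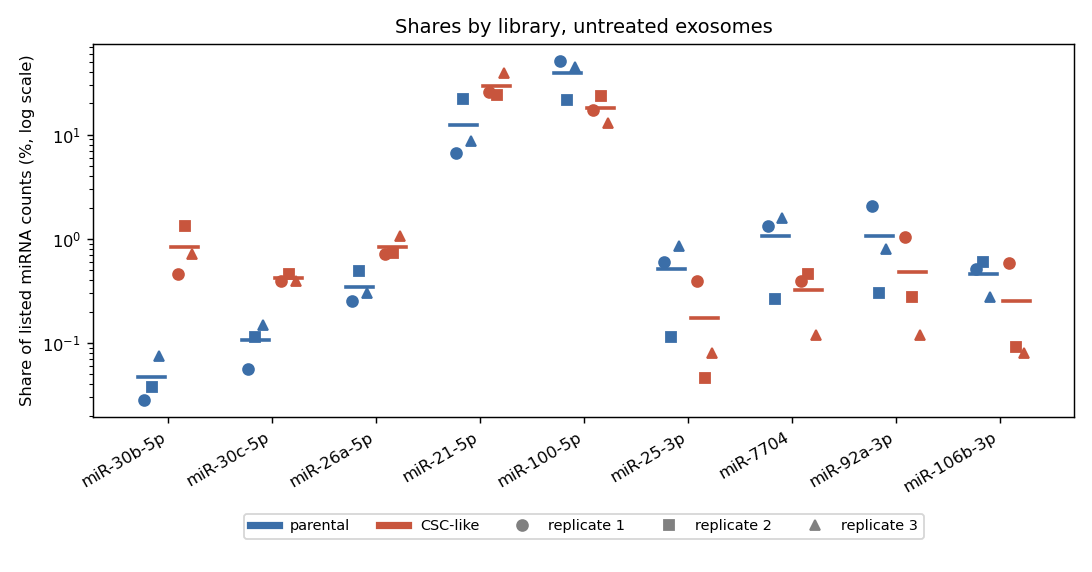
Points give the share of listed miRNA counts (%, log axis) of 9 miRNAs in each untreated library, with 1 symbol per replicate, and horizontal lines give group means. For miR-30b-5p, miR-30c-5p, miR-26a-5p and miR-21-5p all 3 CSC-like libraries lie above all 3 parental libraries, whereas the groups overlap for the other 5.

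The miR-30 family shares a seed but its members did not have like values. Of the 5 listed members 4 were tested and 1 was called higher, which is the 1 call or 3.33% among all 30 tested miRNAs. No median over the tested members is given, since miR-30b-5p and miR-30c-5p passed the count minimum through the CSC-like libraries alone. miR-30c-5p, made from loci in an intron of NFYC (chr1:40757300-40757322, plus strand) and in LINC00472 (chr6:71377003-71377025, minus strand), made up 0.0567%, 0.113% and 0.150% of parental and 0.393%, 0.460% and 0.397% of CSC-like counts. Its groups did not overlap. Its log2 fold change of 1.48 (SE 0.67, 95% interval 0.16 to 2.80) was not called (adjusted p = 0.170 in edgeR), nor did it under any of 15 alternatives (adjusted p from 0.0556 to 0.800).

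miR-30a-5p, which comes from the same LINC00472 locus (chr6:71403595-71403616, minus strand), stood at 0.567%, 0.944% and 0.974% in parental and 3.54%, 0.368% and 2.06% in CSC-like libraries. CSC-like replicate 2 had the lowest share of all 6 libraries for miR-30a-5p but the highest for miR-30b-5p. The log2 fold change was 0.87 (SE 1.13), and it was 0.07 without CSC-like replicate 1 and turned to -0.08 without CSC-like replicate 3. miR-30d-5p, whose gene neighbours that of miR-30b-5p, stood at 0.539%, 0.227% and 0.549% in parental and 0.852%, 0.0921% and 0.634% in CSC-like libraries, and the groups overlapped. Its log2 fold change was -0.30 (SE 0.85), and its sign turns when library totals replace TMM (0.24) and without CSC-like replicate 2 (0.26). miR-30e-5p had at most 4 counts in a library and was not tested.

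Ratios within a library do not depend on library size or normalization. miR-30b-5p counts divided by miR-30d-5p counts were 0.0526, 0.167 and 0.136 in parental and 0.538, 14.5 and 1.13 in CSC-like libraries. Against miR-30c-5p the ratios were 0.500, 0.333 and 0.500 in parental and 1.17, 2.90 and 1.80 in CSC-like libraries. Neither ratio overlapped between the groups, so miR-30b-5p was higher relative to miR-30c-5p and miR-30d-5p in each CSC-like library. The ratios reuse the counts of the only miRNA that passed the test, so they are not separate evidence. Some denominators were small: miR-30c-5p had 2, 3 and 6 counts in parental libraries, and miR-30d-5p had 2 in CSC-like replicate 2. How often ratios of other miRNAs do not overlap was not tested. The family as a whole made up 1.19%, 1.40% and 1.75% of parental and 5.31%, 2.26% and 3.97% of CSC-like counts.

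**Figure D3:**
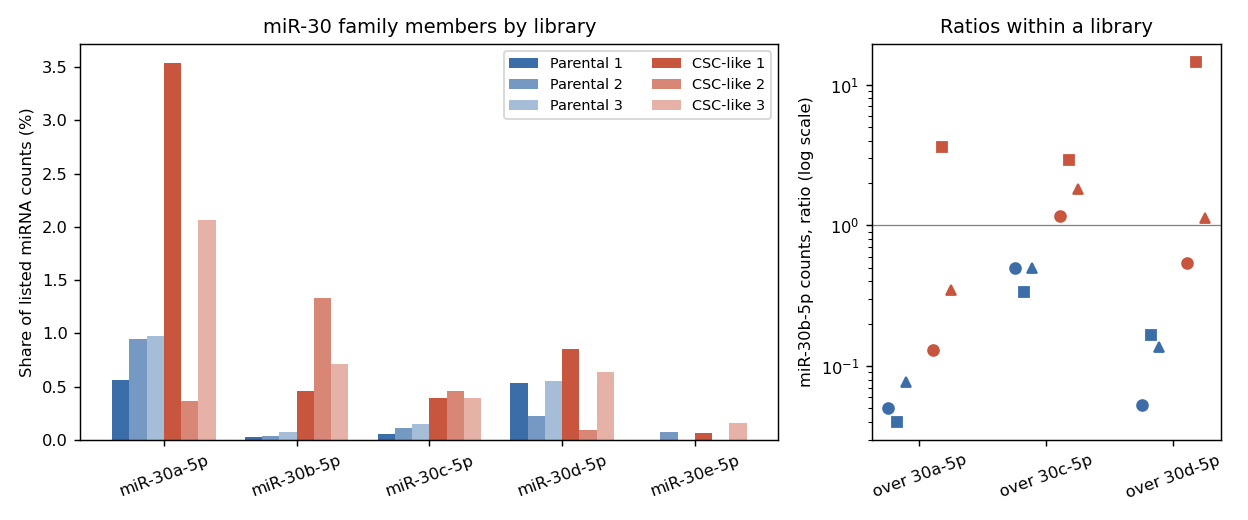
Left, bars give the share of listed miRNA counts (%) of the 5 miR-30 family members in each untreated library. Right, points give the ratio of miR-30b-5p counts to miR-30a-5p, miR-30c-5p or miR-30d-5p counts in the same library (log axis, parental blue, CSC-like red, symbols by replicate as circle, square and triangle). Every parental ratio is at or below 0.500. The CSC-like ratios to miR-30a-5p in replicates 1 and 3 (0.130 and 0.346) are below it too.

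The miRNA with the highest mean share differed between the groups, though neither candidate passed the test. miR-100-5p, which targets MTOR, had the highest mean share in parental exosomes and miR-21-5p, which represses the tumour suppressor PDCD4, in CSC-like exosomes. In parental replicate 2, however, miR-21-5p was the most abundant, as in each CSC-like library. miR-100-5p lies in an intron of MIR100HG (chr11:122152275-122152296, minus strand). Its share was 51.1%, 21.4% and 44.5% in parental and 17.2%, 23.5% and 13.05% in CSC-like libraries. Parental replicate 2 fell among the CSC-like libraries, and the other parental libraries were above all of them. The log2 fold change was -1.81 (SE 0.63, 95% interval -3.07 to -0.56, adjusted p = 0.0726 in edgeR). A contrast from an edgeR model over the 4 groups of the series called it lower (-1.95, adjusted p = 0.00591) among 5 calls or 10.4% of 48 miRNAs. That model also uses the cisplatin-treated libraries to estimate the spread. Among these, parental replicates 2 and 3 had a chi-square per degree of freedom of only 1.48, beside 21.5 to 51.2 in untreated parental pairs. Over 15 alternatives the log2 fold change of miR-100-5p ranged from -1.95 to -1.12, and its adjusted p ranged from 0.00591 to 0.897. The fold change was smallest in size when scaling used library totals alone (-1.12). It was -1.22 with no count minimum and -1.35 among miRNAs with at least 15 counts over the 6 libraries. Only the model over 4 groups called miR-100-5p.

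miR-21-5p, from an exon of VMP1 transcripts (chr17:59841273-59841294, plus strand), made up 6.72%, 22.1% and 8.74% of parental and 25.6%, 24.1% and 38.8% of CSC-like counts. Every CSC-like library was above every parental one, by a small margin for parental replicate 2. The log2 fold change of 1.02 (SE 0.76, 95% interval -0.49 to 2.54) did not pass (adjusted p = 0.515 in edgeR). Without parental replicate 2 it was 2.01 (adjusted p = 0.0698), and without CSC-like replicate 3 it was 0.13 (adjusted p = 0.994). miR-100-5p counts divided by miR-21-5p counts were 7.60, 0.966 and 5.10 in parental and 0.670, 0.975 and 0.336 in CSC-like libraries, so that the groups overlapped through parental replicate 2.

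Other miRNAs made from the MIR100HG transcript also gave no call. miR-125b-5p, an ortholog of the worm miRNA lin-4, was counted 5, 3 and 5 times in parental and 1, 1 and 0 times in CSC-like libraries. miR-125b-1-3p, the opposite arm of 1 of its precursors, was counted 3, 2 and 2 times and 0, 1 and 0 times. The shares of each did not overlap between the groups, but with no count minimum neither passed (log2 fold change -1.88, adjusted p = 0.897 for both, edgeR). let-7a-5p, also made at 2 other loci, stood at 0.0567%, 2.42% and 4.27% in parental and 1.57%, 0.737% and 0.991% in CSC-like libraries (log2 fold change -1.39, SE 1.20, adjusted p = 0.620 in edgeR). Without parental replicate 3 the value was -0.26, and without parental replicate 1 it was -2.09. miR-99b-5p, the seed relative of miR-100-5p made from an intron of SPACA6 (chr19:51692618-51692639, plus strand), was counted 73, 1 and 25 times in parental and 4, 5 and 3 times in CSC-like libraries. It failed the count minimum, and among the 63 miRNAs with at least 15 counts it stood at -2.44 on the log2 scale (SE 1.02, adjusted p = 0.275 in edgeR). miR-99b-5p was called lower without parental replicate 2 (3 calls or 9.38% of 32 miRNAs) and in the model over 4 groups (5 calls or 10.4% of 48).

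The proliferation-linked miR-17-92 cluster and its paralogs had 7 names among the 98, of which 3 were tested. All 3 had negative log2 fold changes, as had 17 of the 30 tested miRNAs, and none passed. Their median was -1.98, beside -0.32 for all tested miRNAs. The untested names did not all go that way. With no count minimum miR-20a-5p stood at 0.90 (SE 1.09), miR-19b-3p at 0.06 (SE 1.61), miR-17-5p at 0.04 (SE 1.57) and miR-93-5p at -0.25 (SE 1.05). miR-25-3p and miR-106b-3p are processed from 1 intron of MCM7, a replication licensing gene (chr7:100093571-100093592 and chr7:100094002-100094023, minus strand). miR-25-3p was counted 21, 3 and 34 times in parental and 6, 1 and 2 times in CSC-like libraries, or 0.595%, 0.113% and 0.849% against 0.393%, 0.0460% and 0.0793% of counts. The groups overlapped through parental replicate 2 and CSC-like replicate 1. The fitted value was -2.34 on the log2 scale (SE 0.86, 95% interval -4.03 to -0.64, adjusted p = 0.0726 in edgeR). Leaving out parental replicate 2 called it lower (-2.37, adjusted p = 0.0198; 3 calls or 9.38% of 32 miRNAs), as did leaving out CSC-like replicate 1 (-3.28, adjusted p = 0.0311; 2 calls or 6.06% of 33). DESeq2 size factors in place of TMM also called it (adjusted p = 0.0490; 2 calls or 6.67% of 30), while the adjusted p was 0.504 without CSC-like replicate 2 and 0.212 without CSC-like replicate 3, where miR-30b-5p was the 1 call (2.86% of 35). Without parental replicate 1 or 3 it no longer reached the count minimum. Over the 13 alternatives that gave a value the adjusted p ranged from 0.0198 to 0.584.

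miR-106b-3p stood at 0.510%, 0.604% and 0.275% in parental and 0.590%, 0.0921% and 0.0793% in CSC-like libraries (log2 fold change -1.41, SE 0.78, adjusted p = 0.275 in edgeR). miR-93-5p of the same intron was counted 2, 8 and 1 times and 3, 1 and 2 times, and was not tested. miR-92a-3p, which shares the seed of miR-25-3p and is made in MIR17HG on chromosome 13 and at a locus on chromosome X, stood at 2.07%, 0.302% and 0.799% in parental and 1.05%, 0.276% and 0.119% in CSC-like libraries (log2 fold change -1.98, SE 1.06, adjusted p = 0.275 in edgeR). Without parental replicate 1 its value was -0.84. Without CSC-like replicate 1, miR-92a-3p stood at -2.76 and miR-106b-3p at -2.84, and without CSC-like replicate 2 miR-106b-3p stood at -0.92. For miR-92a-3p and miR-106b-3p alike, CSC-like replicate 1 lay within the range of the parental libraries, and CSC-like replicates 2 and 3 below it.

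**Figure D4:**
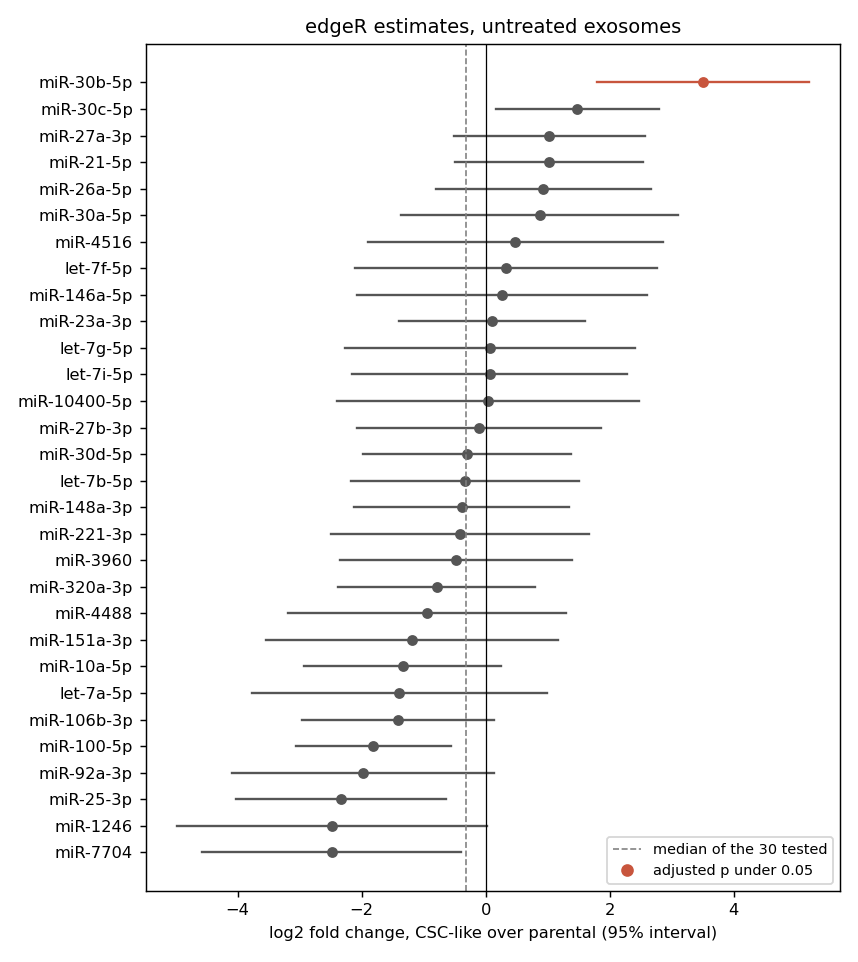
Points give the log2 fold change of CSC-like over parental exosomes for the 30 tested miRNAs from edgeR and bars the 95% interval, with the dashed line at the median of -0.32. The interval of miR-30b-5p starts at 1.80, and the intervals of miR-30c-5p, miR-100-5p, miR-25-3p and miR-7704 also exclude 0 without passing the adjustment.

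miR-26a-5p, which targets EZH2, was the fourth tested miRNA whose groups did not overlap, with 0.255%, 0.491% and 0.300% in parental and 0.721%, 0.737% and 1.07% in CSC-like libraries. Its log2 fold change of 0.93 (SE 0.87, adjusted p = 0.656 in edgeR) did not pass. The 4 miRNAs without overlap were 13.3% of the 30 tested, all with higher shares in CSC-like exosomes, and miR-30b-5p and miR-30c-5p among them had to be high there to be tested. Over all 98 names 11 or 11.2% did not overlap, 7 (7.14%) with higher and 4 (4.08%) with lower shares. The names outside the test with higher shares were miR-22-3p, miR-7-5p and miR-126-3p, and those with lower shares miR-125b-5p, miR-125b-1-3p, miR-584-5p and miR-941.

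miR-22-3p, which is processed from the noncoding transcript MIR22HG (chr17:1713914-1713935, minus strand), was counted 1, 1 and 2 times in parental and 4, 4 and 11 times in CSC-like libraries, or 0.0387% ± 0.0108 against 0.294% ± 0.129 of counts (SD, n = 3 each). Among the 63 miRNAs with at least 15 counts it stood at 2.57 on the log2 scale (SE 0.88, adjusted p = 0.239 in edgeR). miR-7-5p, a repressor of EGFR, was counted 1, 2 and 3 times against 4, 3 and 7 times (log2 fold change 1.62, SE 0.89, adjusted p = 0.469 in the same fit). miR-941, a miRNA made from repeated copies in DNAJC5 on chromosome 20, was counted 16, 6 and 6 times against 2, 2 and 1 times (log2 fold change -1.92, SE 0.83, adjusted p = 0.275). None of these 3 passed, and all rest on few counts. miR-126-3p, an endothelial miRNA, was counted 1, 0 and 0 times against 1, 2 and 3 times.

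The let-7 family had 8 listed and 5 tested members, and none passed. The family made up 14.4% ± 13.6 of counts in parental and 15.03% ± 3.59 in CSC-like exosomes (SD, n = 3 each), so its mean differed by less than the spread between parental libraries. let-7i-5p, the most abundant member, stood at 0.425%, 15.5% and 3.55% in parental and 8.58%, 4.10% and 7.38% in CSC-like libraries. The 95% interval of its log2 fold change ran from -2.15 to 2.28, so changes up to about that size in either direction were not excluded. let-7f-5p stood at 0.0567%, 3.89% and 4.34% in parental but within 3.74% to 4.56% in CSC-like libraries. let-7g-5p was counted 4, 131 and 39 times against 37, 23 and 65 times and let-7b-5p 3, 29 and 42 times against 20, 17 and 6 times, and both overlapped. miR-146a-5p, which dampens NF-kB signalling through IRAK1 and TRAF6, moved between libraries in a like way, with 1.56%, 9.33% and 1.95% against 6.82%, 3.59% and 6.03%. Fitted log2 fold changes were 0.33 for let-7f-5p, 0.07 for let-7g-5p, 0.06 for let-7i-5p, 0.26 for miR-146a-5p and -0.33 for let-7b-5p. The signs of let-7g-5p, let-7i-5p and miR-146a-5p turn with DESeq2 size factors in place of TMM, and that of let-7b-5p turns with library totals. Leaving out parental replicate 1 turned let-7f-5p to -0.39, and leaving out CSC-like replicate 3 turned it to -0.17. let-7b-5p turned to 0.29 and 0.11 without parental replicates 2 and 3. let-7g-5p, let-7i-5p and miR-146a-5p turned negative without parental replicate 1, without parental replicate 3, without CSC-like replicate 1 and without CSC-like replicate 3, with values from -1.36 to -0.21.

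The miR-23/27/24 clusters, which come as paralogous copies, had 3 tested members and no call. miR-27a-3p stood at 0.198%, 0.453% and 0.0999% in parental and 0.393%, 0.184% and 1.11% in CSC-like libraries, with CSC-like replicate 3 above all others (log2 fold change 1.03, SE 0.78, adjusted p = 0.515 in edgeR). Without that library its value turned to -0.82. Its paralog miR-27b-3p, with the same seed, stood at 0.567%, 1.44% and 0.599% against 1.31%, 0.552% and 1.07% (log2 fold change -0.10, SE 0.99), and its value turned to 0.26 without CSC-like replicate 2 and 0.67 without parental replicate 2. miR-221-3p, which targets the cell cycle inhibitor CDKN1B, made up 0.925% ± 0.376 in parental and 1.05% ± 0.189 in CSC-like exosomes (SD, n = 3 each; log2 fold change -0.42, SE 1.05). miR-23a-3p was counted 6, 8 and 18 times in parental and 9, 6 and 12 times in CSC-like libraries (log2 fold change 0.10, SE 0.75), and its value turned to -0.21 without parental replicate 1, -0.12 without CSC-like replicate 1 and -0.45 without CSC-like replicate 3. These groups all overlapped, and the signs of miR-27b-3p and miR-221-3p turn when library totals replace TMM.

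The other tested miRNAs outside these families overlapped as well. miR-10a-5p of the HOXB cluster was counted 16, 7 and 27 times in parental and 6, 8 and 3 times in CSC-like libraries (-1.34 on the log2 scale, SE 0.80, adjusted p = 0.329 in edgeR). miR-148a-3p, which targets DNMT1, was counted 22, 17 and 15 times against 15, 9 and 10 times (-0.39, SE 0.88), with a sign that turns with library totals. The remaining tested miRNAs had log2 fold changes of -1.19 (SE 1.19) and -0.79 (SE 0.80).

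A list of possible fragments of ribosomal or other structured RNA, set by miRNA name, had 11 names, 6 of them tested and none called. These names made up 20.2%, 4.15% and 13.7% of parental and 9.96%, 23.5% and 7.45% of CSC-like counts, and their source was not tested. miR-7704, annotated in an exon of HOXD1 (chr2:176188843-176188861, plus strand), was counted 47, 7 and 63 times in parental and 6, 10 and 3 times in CSC-like libraries. Parental replicate 2 again lay within the range of the CSC-like libraries. The log2 fold change was -2.48 (SE 1.05, 95% interval -4.57 to -0.39, adjusted p = 0.152 in edgeR), and the adjusted p ranged from 0.0279 in the contrast from the model over 4 groups to 0.597 over 14 alternatives. miR-1246 stood at 0.369%, 1.10% and 6.17% against 0.786%, 0.829% and 0.436%, with parental replicate 3 far above the rest (-2.48 on the log2 scale, SE 1.26, adjusted p = 0.262 in edgeR). Without that library miR-1246 stood at -0.56 (adjusted p = 0.826 in edgeR). miR-4516 stood at 1.84%, 0.755% and 1.12% against 2.56%, 4.19% and 1.78%, or 0.48 on the log2 scale (SE 1.20). miR-4488 stood at 11.1%, 0.340% and 3.30% against 2.23%, 9.76% and 2.70%, with overlapping groups (-0.94, SE 1.13). miR-10400-5p was counted 137, 8 and 40 times against 33, 140 and 38 times (0.03, SE 1.23) and miR-3960 41, 16 and 8 times against 12, 21 and 12 times (-0.48, SE 0.94). The sign of miR-4488 turned without parental replicate 1 (0.68) and without CSC-like replicate 1 (0.03). That of miR-10400-5p turned without parental replicate 3 (-0.50) and without CSC-like replicate 2 (-0.54). That of miR-3960 turned without parental replicate 1 (0.54) and with library totals (0.18).

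Libraries also differed in base composition. The mean GC content of the counted miRNAs was 56.9%, 43.5% and 48.9% in parental and 46.4%, 52.98% and 44.1% in CSC-like libraries. miRNAs with a GC content over 70%, 9 of the 98, took 19.7%, 2.45% and 7.39% of parental and 8.39%, 22.4% and 6.70% of CSC-like counts. Across the 30 tested miRNAs, which share these libraries, GC content and log2 fold change had a Spearman correlation of -0.39 and a Pearson correlation of -0.25, as a description. Leaving the 11 structured-RNA-like entries out of counts and library sizes gave 2 calls or 8.33% of 24, miR-25-3p lower and miR-30b-5p higher (3.70, adjusted p = 0.000452 in edgeR, within the range of 0.000151 to 0.0997 over alternatives). The part of base composition in these values, miR-30b-5p included, was not tested.

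**Figure D5:**
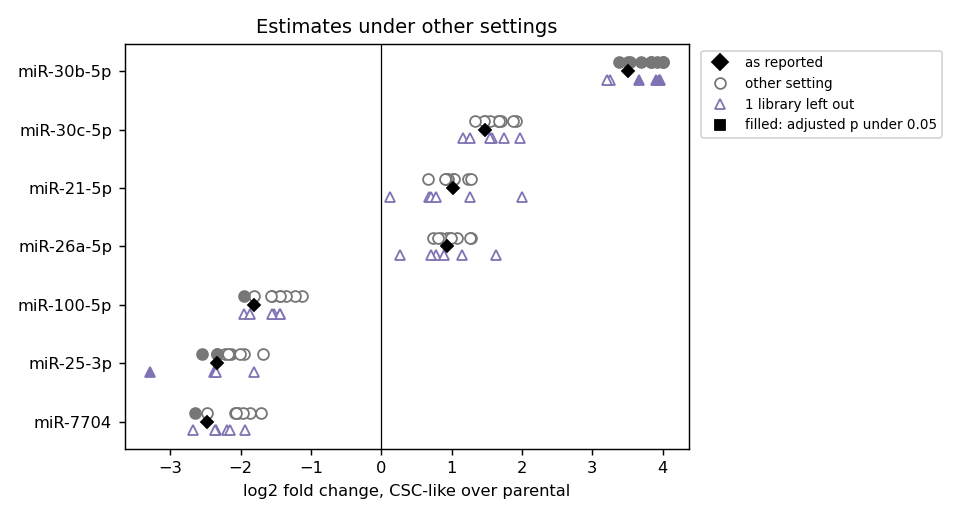
Points give the log2 fold change of CSC-like over parental exosomes for 7 miRNAs as reported (diamonds), under other settings (circles) and with 1 library left out (triangles), where filled circles and triangles have an adjusted p under 0.05 and diamonds are always filled. All 7 keep their direction, miR-30b-5p between 3.21 and 4.01, and its open triangles mark the 2 leave-outs that end its call.

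A further 39 names had a row for parental exosomes alone and 16 for CSC-like exosomes alone. They made up 114 counts or 1.12% of the untreated parental group and 38 counts or 0.611% of the untreated CSC-like group. In each table every listed name had at least 1 count in the untreated and in the cisplatin-treated group. A name without a row in the other table may therefore have lacked counts in either of that table's groups, so no fold is given. In the parental table the names with the most untreated counts were miR-28-3p with 12, 3 and 9, miR-125a-5p with 7, 1 and 1, miR-99b-3p with 2, 3 and 3, let-7c-5p with 0, 4 and 3 and the liver miRNA miR-122-5p with 0, 0 and 6. In the CSC-like table they were miR-30a-3p, the opposite arm of miR-30a-5p, with 3, 2 and 1, miR-10396a-5p with 0, 4 and 1 and the neuronal miR-218-5p with 0, 2 and 2. Next came miR-629-5p, miR-378i, miR-660-5p and miR-197-3p with 3 counts each in the group.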

How the data were processed

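Per the file headers, the authors deposited whole-number read counts per mature miRNA and replicate, neither transformed nor normalized, after trimming, grouping on mature miRNAs and annotation. Trimming and quality control used cutadapt and FastQC, per the submitters' processing notes. Not given in the sources used here are the aligner, the genome build and the miRNA release. A single line of each table was not analysed here. The deposited means, fold changes and p-values of the cisplatin comparisons were not used.

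Names listed in both tables were joined, and library size was the sum of all listed human counts of a library in its own table. The tables were counted separately, so any difference in their counting coincides with the groups. Counts of 6 libraries were tested with edgeR 4.0.16 (R 4.3.3): filterByExpr (minimum count 10, minimum total 15), TMM and the quasi-likelihood test, adjusted over the 30 miRNAs tested. Standard errors came from the fold change and F statistic. The test was run on simulated counts first. DESeq2 1.42.0 served as an alternative. In the model over 4 groups, cisplatin-treated CSC-like replicates 2 and 3, which agreed within sampling noise (chi-square p = 0.212), were summed. Loci come from RefSeq (GRCh38.p14) and host genes from GENCODE 29 (GRCh38).

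miRNAs named are those with an unadjusted p under 0.05, the 10 most abundant, members of lists and the most counted names of 1 table. Members, lists and rules were chosen with earlier results of these data known. Names of non-overlapping miRNAs outside the test were chosen after their values were seen.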

Additional observations from a re-analysis of the deposited data

How the results depend on the processing

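The number of miRNAs called was 1 as reported and 1 under 6 of the 9 alternatives that keep all libraries, always miR-30b-5p. It was 2 with DESeq2 size factors and without the structured-RNA-like entries, where miR-25-3p was added (adjusted p = 0.0490 and 0.0214), and 5 in the contrast from the model over 4 groups, where miR-25-3p, miR-100-5p, miR-7704 and miR-99b-5p were added as lower. Leaving out 1 library gave 0 to 3 calls, with 0 without parental replicate 1 or CSC-like replicate 2. With 3 libraries a group, 1 library can decide a call.

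The tested miRNAs had a median log2 fold change of -0.32 under TMM but 0.14 under library totals, and values near 0 change sign with the scaling. With DESeq2 size factors let-7g-5p stood at -0.38, let-7i-5p at -0.35 and miR-146a-5p at -0.052, and in the DESeq2 Wald test at -0.38, -0.35 and -0.052. With library totals let-7b-5p stood at 0.049, miR-148a-3p at 0.11, miR-221-3p at 0.18, miR-27b-3p at 0.17, miR-30d-5p at 0.24 and miR-3960 at 0.18. With no count minimum miR-221-3p stood at 0.075, miR-27b-3p at 0.12, miR-30d-5p at 0.0043 and miR-3960 at 0.10. With at least 15 counts let-7g-5p stood at -0.19 and let-7i-5p at -0.16. Without the structured-RNA-like entries let-7g-5p stood at -0.67, let-7i-5p at -0.62, miR-146a-5p at -0.31 and miR-23a-3p at -0.046. In the model over 4 groups let-7g-5p stood at -0.057, let-7i-5p at -0.073, miR-10400-5p at -0.031 and miR-23a-3p at -0.086. The TMM factors were 0.616, 1.33 and 0.764 in parental and 1.22, 1.40 and 0.940 in CSC-like libraries. Each factor scales all miRNAs of its library alike, so TMM and library totals differ by a shift common to the miRNAs. What else enters these reversals was not tested.

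Leaving out 1 library, the sign also changed for let-7f-5p (-0.39 to 1.14), let-7g-5p (-1.36 to 2.02), let-7i-5p (-1.16 to 1.85), let-7b-5p (-0.98 to 0.29), miR-146a-5p (-0.80 to 1.61), miR-23a-3p (-0.45 to 0.51), miR-27a-3p (-0.82 to 1.52), miR-27b-3p (-0.97 to 0.67), miR-30a-5p (-0.076 to 1.40), miR-30d-5p (-1.11 to 0.26), miR-3960 (-1.13 to 0.54), miR-4488 (-1.59 to 0.68) and miR-10400-5p (-0.54 to 1.68).

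Replicate numbers were not shown to pair the groups: same-numbered libraries had correlations of -0.10, -0.48 and -0.19 between their deviations from group means. Differently numbered libraries had -0.33 to 0.50. The highest was between parental replicate 2 and CSC-like replicate 3, and parental replicate 1 and CSC-like replicate 2 had 0.35. With the replicate block 1 miRNA was called, miR-30b-5p (log2 fold change 3.53, adjusted p = 0.000621 in edgeR, range 0.000151 to 0.0997 over alternatives), and miR-3960 changed sign (0.00069). Leaving out 1 library, the mean let-7 share ranged from 7.64% to 21.2% in parental exosomes, and the mean share of the 7 listed miR-17-92 and paralogous miRNAs from 0.574% to 1.54% in CSC-like exosomes.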
